A study of Mus musculus with 4 samples.

Results

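Chemokines and their receptors form the gene set described here: every gene whose symbol is that of a CC, CXC, CX3C or XC chemokine, of a matching receptor, or of an atypical (Ackr) receptor. The symbol rule found 61 gene rows of 28545 in each table, with 59 distinct symbols, of which 39 rows are ligands and 22 are receptors. The rule reads gene symbols alone. Messenger RNA with a poly(A) tail was sequenced in 4 libraries from mice in proestrus; the labels give the tissue as endometrium, the lining of the uterus, and the design text as uterine tissue. Of these, 2 carry the label SMAD7fl/fl, and are marked blank for treatment. The loxP sites were placed in Smad7 by injecting a guide RNA, a donor vector and Cas9 messenger RNA into eggs, a protocol given for all 4 libraries. The other 2 carry the label SMAD7 Cre+/- and are marked CKO, a short form that the labels do not spell out. The design text speaks of knockout and WT mice without tying either word to a library. The 2 kinds are called floxed and Cre below, with their replicate numbers. The labels do not give the promoter that drives Cre, the age of the mice, the floxed exons or whether libraries came from separate animals. P-values therefore rest on differences among 4 libraries that may reflect technical variation alone.

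Chemokines are small secreted proteins that bind receptors coupled to inhibitory G proteins, and they set up gradients along which leukocytes move. The CC and CXC families are named for the spacing of their first cysteines. Some are induced by inflammatory signals such as interferon-gamma, TNF or interleukin-1, others are made steadily by epithelium and stroma, and atypical receptors bind ligands without the usual signal and clear them. In the uterus of rodents, ovarian steroids are known to govern how many neutrophils, eosinophils, macrophages and natural killer cells enter the tissue over the cycle.

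Total counts per library ran from 17444368 to 22950532. Smad7, read first as the check of the labels, stood at 34.3 and 36.8 CPM in the floxed pair and at 227.6 and 154.0 CPM in the pair labelled Cre (log2 fold change 2.42 ± 0.28 SE, adjusted p = 0.0982), so it was higher where a deletion is labelled. Every direction below is therefore that of the libraries labelled Cre against those labelled floxed, not of a verified loss of Smad7. CPM are counts relative to TMM-scaled library size, and pairs of values are given in the order replicate 1, replicate 2. Epithelial and stromal markers were present in every library: Epcam ranged from 243 to 379 CPM and Pgr, from the stroma list, from 287 to 601 CPM. Of 7 genes on the stroma list, 3 were lower and 2 higher in the Cre pair without overlap, with Pgr among the higher. Marker lists of neighbouring tissue were higher in the Cre pair without overlap for 5 of 5 smooth muscle, 4 of 4 mesothelial and 5 of 5 oviduct and ovary genes. Of all tested genes, 23.6% were lower and 24.7% higher without overlap. The oviduct gene Ovgp1 ranged from 1.70 CPM in floxed 1 through 86.8 in floxed 2 and 201 in Cre 1 to 869 in Cre 2. The part of this difference in tissue content in the results below was not tested. The floxed libraries were also less alike than the Cre libraries, with a biological coefficient of variation of 0.401 against 0.163.

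Most chemokine and receptor genes had lower values in the Cre pair. Of all 61, 37 were lower and 8 higher without overlap between the groups, and 16 overlapped. Among all genes with a count, 19.9% were lower and 21.5% higher without overlap. These counts used TMM scaling over all genes with a count. By it the chromosome 4 Ccl21a row was lower, while its CPM as scaled elsewhere in this report overlapped. Rows with few reads are included: the second Ccl27a row was lower on 1 and 1 against 0 and 0 counts, and Ccl21b higher on 2 and 1 against 3 and 2. A mean of at least 1 FPKM (counts relative to gene length and library total) was required for the test, and 42 members passed: 27 ligands and 15 receptors. Xcr1 lay just under that limit at a mean of 0.998 FPKM and Cxcr2 just over it at 1.07. Of the 42, 8 passed through the floxed pair alone (Ccl17, Ccl22, Ccr7, Cxcl1, Cxcl2, Cxcl5, Cxcl9 and Cxcr2) and 1, Cxcl13, through the Cre pair alone, so these had to differ. The counts that follow are descriptions for that reason.

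No member passed at an adjusted p under 0.05 in edgeR's quasi-likelihood test, which called 0% of all genes; the lowest adjusted p among members was 0.0919, for Cxcr2. At an unadjusted p under 0.05, 25 members were lower and 1 was higher, where 6.58% and 7.3% of all 13513 tested genes were. Among the 33 members with a mean of 1 FPKM or more in both groups, 18 were lower and 0 higher at that level. Groups did not overlap for 30 members lower and 4 higher, against 23.6% and 24.7% of all tested genes. The median log2 fold change was -1.30 over the tested members and -0.033 over all tested genes, with -1.70 for ligands and -0.89 for receptors. These member medians include the genes that passed the filter through one group alone. Over the 33 members that passed in both groups, the median was -0.94, and 23 were lower and 3 higher without overlap. DESeq2 on the same counts called 14 members lower and 1 higher at an adjusted p under 0.05 (3% and 3.24% of all genes). Of these calls, 8 lower and the 1 higher were members that passed the filter through one group alone; among the other 33 members, 6 were lower and 0 higher. In bulk tissue, fewer cells of a type and less RNA per cell cannot be told apart.

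**Figure D1:**
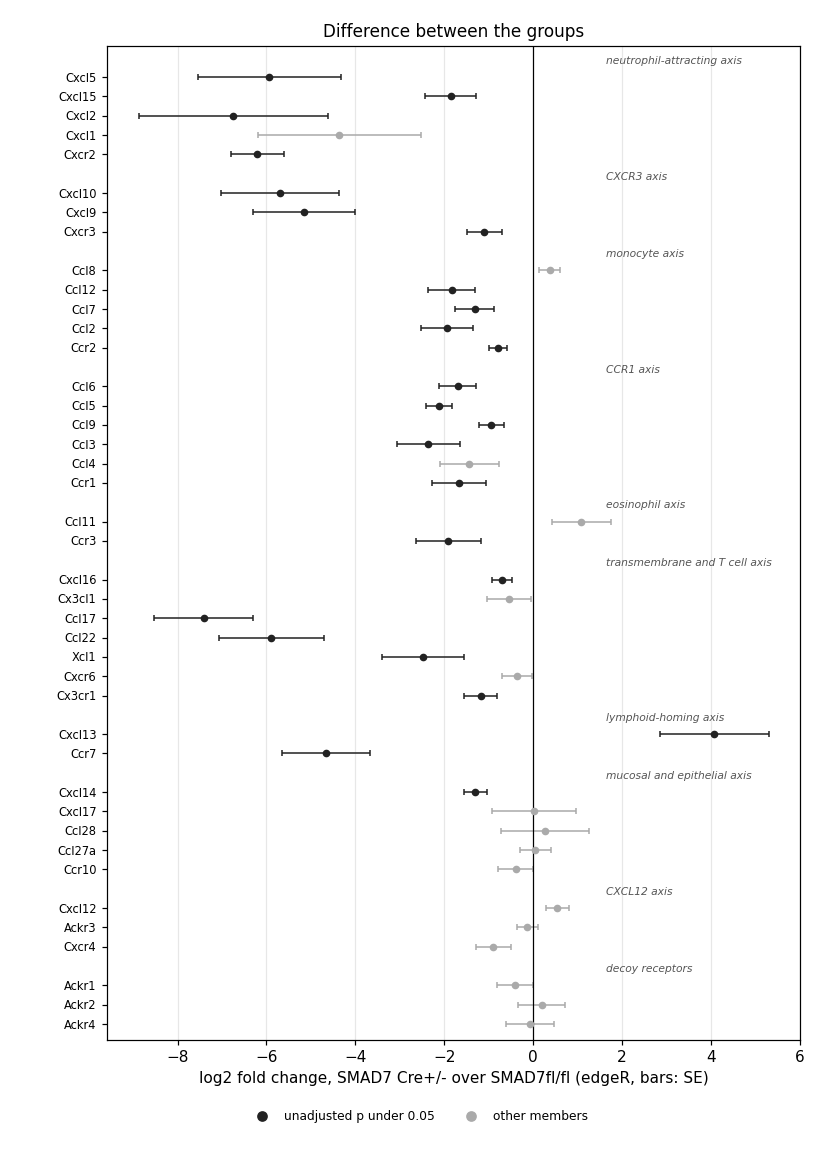
Log2 fold change of 41 tested members, Cre over floxed, with its standard error from edgeR (x axis), by role (y axis); dark points have an unadjusted p under 0.05. Of these, 33 lie left of 0, and the widest errors belong to Cxcl1 and Cxcl2.

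Neutrophil-attracting CXC ligands carry a Glu-Leu-Arg motif ahead of the first cysteine and act through Cxcr2 and, for some, Cxcr1. Cxcr2, the main receptor of this group on neutrophils, stood at 6.88 and 6.02 CPM in the floxed pair and at 0.102 and 0.0576 CPM in the Cre pair (log2 fold change -6.21 ± 0.60 SE, adjusted p = 0.0919). Both floxed libraries were thus high, and the Cre libraries held 2 counts and 1 count against 162 and 105. The ratio of floxed to Cre was 80.4, with a 95% exact counting interval from 27.2 to 392.3. Cxcr1 was rarer, with 0 and 7 counts in the floxed pair and 0 and 2 in the Cre pair.

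The ligands of this group summed to 28.6 and 113 FPKM in the floxed pair and 3.88 and 8.29 FPKM in the Cre pair, and unlike the receptor they differed widely between the floxed libraries. Cxcl5, an epithelial ligand, stood at 5.57 and 144 CPM in the floxed pair and 1.22 and 1.21 CPM in the Cre pair (log2 fold change -5.93 ± 1.62 SE, adjusted p = 0.237). For Cxcl2, made by activated myeloid cells and epithelium, the values were 0.510 and 29.6 CPM against 0.204 and 0.0576 CPM (-6.74 ± 2.13 SE, adjusted p = 0.282). Cxcl1, induced in stroma and epithelium by inflammatory signals, had 0.340 and 25.7 CPM against 0.509 and 0.749 CPM (-4.36 ± 1.83 SE, adjusted p = 0.381). Floxed 2 exceeded floxed 1 by 75.5-fold for Cxcl1, 58.1-fold for Cxcl2 and 25.8-fold for Cxcl5. For Cxcl1 the floxed 1 library lay below both Cre libraries, so the groups overlapped, and without floxed 2 the log2 fold change turned to 0.86. Without floxed 2 it was -1.89 for Cxcl2 and -2.20 for Cxcl5. Cxcl3 had 20 counts in floxed 2 and 0 in each other library. Cxcl15, known from lung and endometrial epithelium, had the opposite order in the floxed pair, at 52.1 and 25.8 CPM, and 6.16 and 15.4 CPM in the Cre pair (-1.85 ± 0.57 SE, adjusted p = 0.272).

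These ligands lie side by side on chromosome 5 of GRCm38, from Cxcl5 (90759360 to 90761624, plus strand) through Cxcl3, Cxcl15 and Cxcl1 (90891241 to 90893115) to Cxcl2 (90903871 to 90905938). The promoters of Cxcl1 and Cxcl2, the neighbours with the widest gap between the floxed libraries, are shown from RefSeq on GRCm38.p6 (250 bases before to 50 after the start, plus strand) at chr5:90890995-90891294 and chr5:90903649-90903948. Capitals mark matches, on either strand, to GGGNNNTTCC, a form of the NF-kB motif, and to GAAANNGAAA, the core of the interferon-stimulated response element (ISRE).
Cxcl1: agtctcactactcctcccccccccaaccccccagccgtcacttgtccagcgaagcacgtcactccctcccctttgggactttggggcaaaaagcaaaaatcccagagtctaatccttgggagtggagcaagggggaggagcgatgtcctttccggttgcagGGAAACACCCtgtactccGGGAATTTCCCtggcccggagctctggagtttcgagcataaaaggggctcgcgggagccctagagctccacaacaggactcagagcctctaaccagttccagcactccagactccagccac
Cxcl2: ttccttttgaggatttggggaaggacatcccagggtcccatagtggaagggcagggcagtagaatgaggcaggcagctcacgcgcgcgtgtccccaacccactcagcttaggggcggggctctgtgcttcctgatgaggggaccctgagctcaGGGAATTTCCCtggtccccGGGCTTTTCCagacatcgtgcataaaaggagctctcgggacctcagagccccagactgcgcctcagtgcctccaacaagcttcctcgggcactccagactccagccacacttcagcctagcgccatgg
Each held 3 matches to the NF-kB form, some of them overlapping on opposite strands, and 0 to the ISRE core. The NF-kB form was found in 5.56% of 32851 mouse promoters of this length and in 9 of the 52 member promoters in the table, which cover 45 members: Ccl1, Ccl9, Ccl20, Ccr3, Ccr6, Cxcl1, Cxcl2, Cxcl3 and Cxcl10. A match is a description of the letters and shows no binding. Members with the match did not share one order in the floxed pair: Cxcl1, Cxcl2, Cxcl3 and Ccl20 were higher in floxed 2, while Cxcl10 (13.3-fold), Ccr3 (4.62-fold) and Ccl9 (1.26-fold) were higher in floxed 1. Ccl1 and Ccr6 had fewer than 10 counts in either floxed library. Ccl20, which attracts Ccr6-bearing cells, had 0 and 66 counts in the floxed pair and 2 and 0 in the Cre pair. Genes of the NF-kB pathway among the listed inducers were named after their values were seen. Those given here, all but Nfkb1 and Myd88, were higher in floxed 2 than in floxed 1, by differing amounts. Nfkbiz stood at 36.5 and 316 CPM in the floxed pair, Nfkbia at 83.4 and 383 CPM and Tnfaip3 at 21.2 and 71.7 CPM. The subunits were closer, with Relb at 30.4 and 46.4 CPM, Rela at 112 and 126 CPM, Nfkb1 at 128 and 125 CPM and Nfkb2 at 50.7 and 57.7 CPM. Myd88, from the same list, had 61.5 and 56.6 CPM. The part of this pathway in the ligand values was not tested.

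Among neutrophil markers, 8 of 10 were lower in the Cre pair without overlap (23.6% of all tested genes were). Their summed level without Ltf, which uterine epithelium also makes, was 215 and 150.4 CPM in the floxed pair and 41.4 and 36.8 CPM in the Cre pair. S100a8 had 266 and 448 counts against 1 and 3, and Camp had 1 and 0 against 0 and 0, too few to compare. Ltf went the other way, at 682 and 2169 CPM in the floxed pair and 3716 and 2229 CPM in the Cre pair. The part of neutrophil number in the ligand and receptor values was not tested.

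Ligands of Cxcr3, the receptor of effector T and natural killer cells, are induced by interferon-gamma. They summed to 143 and 11.3 FPKM in the floxed pair and 1.42 and 1.91 FPKM in the Cre pair. Cxcl10 stood at 230.3 and 17.3 CPM in the floxed pair and at 2.09 and 2.71 CPM in the Cre pair (log2 fold change -5.69 ± 1.32 SE, adjusted p = 0.192), and Cxcl9 at 112 and 12.2 against 1.48 and 2.02 CPM (-5.15 ± 1.16 SE, adjusted p = 0.178). Groups did not overlap for either, and here floxed 1 was the high library, by 13.3-fold over floxed 2 for Cxcl10 and 9.21-fold for Cxcl9. Against floxed 2 alone the log2 fold changes were -2.85 and -2.80, and against floxed 1 alone -6.60 and -6.01. Cxcl11, annotated as a polymorphic pseudogene with 41.7% of its exon bases shared with Gm2673, had 41 and 4 counts against 1 and 3. Their receptor Cxcr3 showed no such gap between the floxed libraries, at 6.16 and 7.51 CPM against 3.56 and 2.82 CPM in the Cre pair (-1.10 ± 0.39 SE, adjusted p = 0.320).

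Cxcl9 (92321347 to 92328079) and Cxcl10 (92346638 to 92348889) are neighbours on the minus strand of chromosome 5, and Art3 overlaps 5.91% of the exon bases of Cxcl10. Since both were high in the same library, their promoters are shown from the same source, at chr5:92328030-92328329 and chr5:92348840-92349139, minus strand, with capitals as above.
Cxcl9: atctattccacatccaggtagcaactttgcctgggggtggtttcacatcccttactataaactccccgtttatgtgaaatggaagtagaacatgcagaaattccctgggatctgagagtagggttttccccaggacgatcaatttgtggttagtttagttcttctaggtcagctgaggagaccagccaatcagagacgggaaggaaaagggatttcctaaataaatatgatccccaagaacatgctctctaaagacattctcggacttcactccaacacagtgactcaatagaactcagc
Cxcl10: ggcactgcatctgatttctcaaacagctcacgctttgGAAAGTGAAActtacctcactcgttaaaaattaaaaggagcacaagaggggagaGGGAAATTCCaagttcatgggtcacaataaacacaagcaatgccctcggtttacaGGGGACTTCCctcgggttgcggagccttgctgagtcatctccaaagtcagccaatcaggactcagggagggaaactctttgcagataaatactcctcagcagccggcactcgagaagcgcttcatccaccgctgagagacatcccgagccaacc
The Cxcl10 window held 1 match to the ISRE core and 2 to the NF-kB form, and that of Cxcl9 held 0 of either, which says only that these letters are not in this window. The ISRE core was found in 3.44% of all promoters and in 3 member promoters, of Ccl19, Cxcl10 and Cxcl14. T and natural killer cell markers did not share the gap between floxed libraries. Of 11, 10 were lower in the Cre pair without overlap (23.6% of all tested genes were), and none was at 0 there. These markers summed to 92.3 and 98.9 CPM in the floxed pair against 27.6 and 27.4 CPM in the Cre pair. Their part in the values of Cxcr3 and its ligands was not tested.

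**Figure D2:**
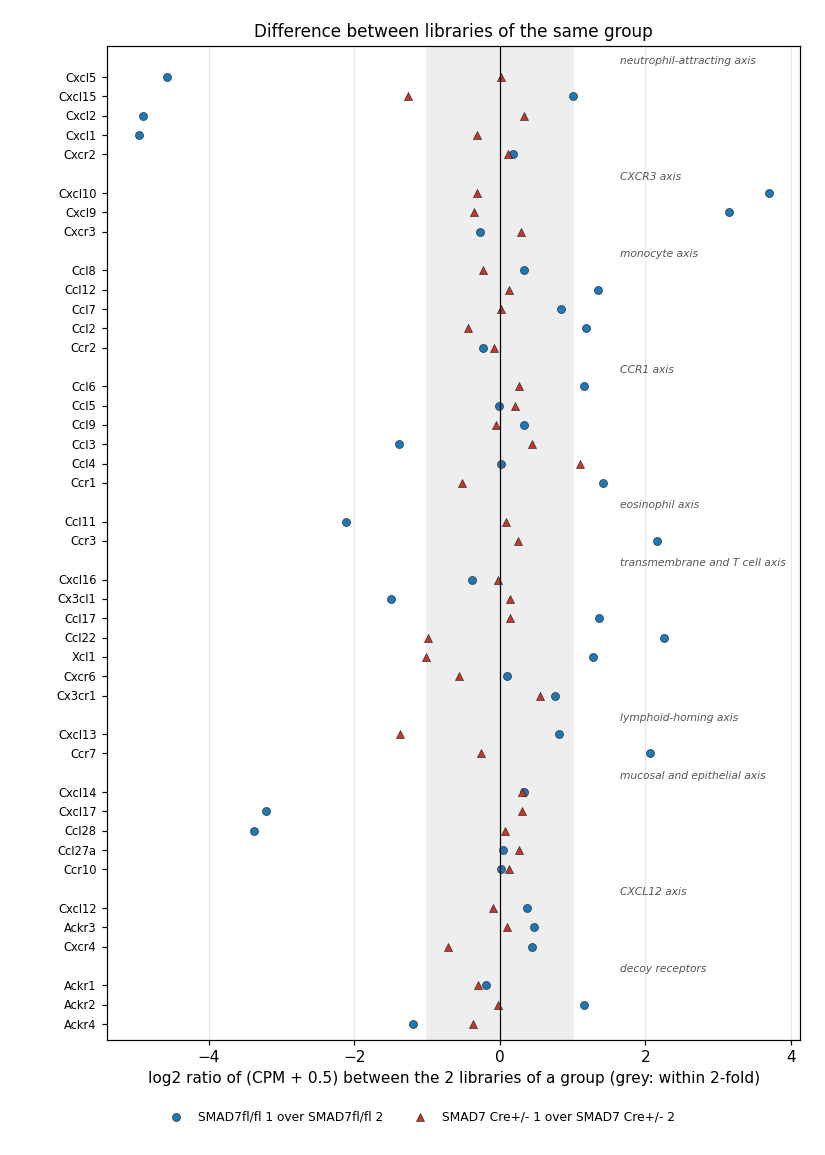
Log2 ratio of replicate 1 to replicate 2 (CPM + 0.5) for 41 tested members (x axis), with circles for the floxed pair and triangles for the Cre pair; grey marks a difference of at most 2-fold. The circles of Cxcl1 and Cxcl2 lie farthest left and that of Cxcl10 farthest right.

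The plot of differences between libraries of one group shows that the floxed libraries were high in different chemokines. In the floxed pair 54.8% of members differed by over 2-fold and 26.2% by over 4-fold, where 17.3% and 3.20% of all tested genes did; in the Cre pair the shares were 9.52% and 0%, where 1.52% and 0.437% of all tested genes did. Members over 4-fold higher in floxed 1 were Cxcl10, Cxcl9, Ccl22 (5.01-fold over floxed 2), Ccr7 (4.85-fold) and Ccr3 (4.62-fold). Those over 4-fold higher in floxed 2 were Cxcl1, Cxcl2, Cxcl5, Ccl28 (10.5-fold over floxed 1), Cxcl17 (9.52-fold) and Ccl11 (4.43-fold). In 7 members the floxed values differed by at most 1.2-fold and lay above both Cre values: Cxcr2, Ccl5, Ccr2, Ccl4, Ccr10, Cxcr6 and Ackr1. Of all tested genes, 23.6% were lower without overlap, and the share that also met the 1.2-fold limit was not computed. Ccl4, Ccr10, Cxcr6 and Ackr1 had an unadjusted p above 0.05 in edgeR, so the 7 were not equally distinct.

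Monocyte chemoattractants of the CC family signal mainly through Ccr2, which brings monocytes from blood into tissue. Ccr2 stood at 60.6 and 71.0 CPM in the floxed pair and 36.9 and 39.1 CPM in the Cre pair (log2 fold change -0.79 ± 0.20 SE, adjusted p = 0.219), with no overlap. Ccl2 had 10.6 and 4.36 against 1.58 and 2.30 CPM (-1.95 ± 0.58 SE, adjusted p = 0.268). Ccl7 had 12.4 and 6.65 against 3.87 and 3.80 CPM (-1.31 ± 0.44 SE, adjusted p = 0.299). All 3 were low in the Cre pair, and the ligands were higher in floxed 1 than in floxed 2. Ccl12, a mouse ligand of Ccr2, had 25.8 and 9.80 against 5.24 and 4.78 CPM (-1.83 ± 0.53 SE, adjusted p = 0.256). Ccl8, placed in this group by name alone, was by length-corrected level the most abundant member over the 4 libraries. It went the other way at 77.5 and 61.5 CPM against 82.8 and 97.5 CPM, a difference of 0.37 ± 0.23 SE on the log2 scale (adjusted p = 0.516). These genes sit in one run on chromosome 11, in the order Ccl2 (82035571 to 82037453), Ccl7, Ccl11, Ccl12 (82101845 to 82103400) and Ccl8 (82115185 to 82116799), so neighbours in the run had values of opposite direction.

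A further group of 5 CC ligands that leukocytes make was lower in the Cre pair without overlap in 5 of 5 cases (23.6% of all tested genes were), as was Ccr1, a receptor on monocytes and macrophages. Ccl5, made by T and natural killer cells, was the most even of them, at 21.7 and 21.8 CPM in the floxed pair and 5.39 and 4.61 CPM in the Cre pair (log2 fold change -2.12 ± 0.29 SE, adjusted p = 0.102). Ccl6, a mouse chemokine of macrophages and the most abundant of this group per length, stood at 151 and 67.8 against 36.8 and 30.6 CPM (-1.70 ± 0.42 SE, adjusted p = 0.212). Its neighbour on chromosome 11, Ccl9, had 24.4 and 19.3 against 11.2 and 11.6 CPM (-0.94 ± 0.27 SE, adjusted p = 0.259). Ccl6 was over 2-fold higher in floxed 1 than in floxed 2, and Ccl9 differed less between them. Ccl3, made by activated leukocytes, had 2.38 and 6.99 against 1.12 and 0.691 CPM (-2.35 ± 0.71 SE, adjusted p = 0.268), with -1.39 against floxed 1 alone and -2.93 against floxed 2 alone. Ccl4 had a log2 fold change of -1.43 ± 0.66 SE and an unadjusted p above 0.05. Ccr1 stood at 17.0 and 6.08 against 2.90 and 4.38 CPM (-1.67 ± 0.60 SE, adjusted p = 0.325). It was over 2-fold higher in floxed 1 than in floxed 2, and the lower floxed value lay nearer to the Cre pair than to the other floxed library.

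Macrophage and monocyte markers were lower in the Cre pair without overlap for 7 of 10 genes (23.6% of all tested genes were). Their summed levels were 1474 and 855 CPM in the floxed pair and 745 and 759 CPM in the Cre pair, and none was at 0. Mrc1, which marks resident macrophages, was higher in the Cre pair, at 65.7 and 37.8 against 90.5 and 92.1 CPM. The part of macrophage number in the values of Ccr1, Ccr2 and the CC ligands was not tested.

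In the eosinophil axis, ligand and receptor had opposite directions. Ccl11 (eotaxin), which draws eosinophils into the uterus, stood at 16.3 and 72.3 CPM in the floxed pair and 96.7 and 91.5 CPM in the Cre pair (1.09 ± 0.67 SE, adjusted p = 0.517). Floxed 2 lay near the Cre pair, and the difference rested on floxed 1: against floxed 1 alone the log2 fold change was 2.52, against floxed 2 alone 0.38. Its receptor Ccr3 stood at 48.2 and 10.4 against 8.55 and 7.14 CPM (-1.90 ± 0.73 SE, adjusted p = 0.348). Here too floxed 1 alone stood apart, with -2.62 against it and -0.41 against floxed 2. Ccl24, another ligand of Ccr3, had 4 and 10 counts in the floxed pair and 22 and 23 in the Cre pair, a ratio of Cre to floxed of 3.56 with a 95% counting interval from 1.92 to 7.02. Of 4 eosinophil markers, 1 was lower in the Cre pair without overlap: Siglecf, at 12.7 and 3.38 against 2.80 and 1.21 CPM. That count is near the share over all tested genes, 23.6%. Il5ra had 6.37 and 2.01 against 5.70 and 3.80 CPM, Prg2 had 22 and 33 against 37 and 23 counts, and Epx, a granule peroxidase of eosinophils, had 1, 0, 0 and 1 counts. Summed eosinophil markers were 20.1 and 7.28 CPM in the floxed pair and 10.4 and 6.39 CPM in the Cre pair, and their part in the Ccr3 values was not tested.

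Ccl17 and Ccl22, ligands of Ccr4 that dendritic cells and macrophages make, were nearly absent from the Cre pair. Ccl22 stood at 38.8 and 7.74 CPM in the floxed pair and 0.102 and 0.691 CPM in the Cre pair (log2 fold change -5.89 ± 1.19 SE, adjusted p = 0.160), from 1047 and 14 counts in all, a ratio of 67.5 with a counting interval from 40.1 to 124. The ratio was 20.5 without floxed 1 and 251 without Cre 2, the extremes when any 1 library was left out. Ccl17 stood at 8.33 and 2.92 CPM in the floxed pair, and the Cre libraries held 1 count and 0 counts against 247 in all (adjusted p = 0.106). Its ratio was 223 with an interval from 39.7 to 8847. Without floxed 1 the ratio was 108, without floxed 2 it was 308, and without Cre 1 the Cre side held 0 counts, so that no ratio is given. Both genes lie with Cx3cl1 within one stretch of chromosome 8, from 94745590 to 94812036. Ccr4 had 24 and 23 counts in the floxed pair and 4 and 7 in the Cre pair, a ratio of 3.86 (1.97 to 8.25), and Ccl1 had 8 and 6 counts against 0 and 1, a ratio of 12.6 (1.92 to 535). Ccr8, the receptor of Ccl1, had 1 and 8 against 2 and 1 counts, a ratio of 2.71 (0.676 to 15.6). Such intervals cover counting error and not the spread between libraries, so they do not show whether the groups differ.

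Ccr7, which guides mature dendritic cells and naive T cells to lymph nodes, was low in the same libraries. It stood at 11.7 and 2.41 CPM in the floxed pair and 0.204 and 0.346 CPM in the Cre pair (log2 fold change -4.67 ± 0.99 SE, adjusted p = 0.167), from 317 and 10 counts in all. The ratio of floxed to Cre was 8.91 without floxed 1 and 43.3 without floxed 2, the extremes when any 1 library was left out. Its ligands gave too few reads to describe: Ccl19 had 1 count in all, Ccl21b had 8, and the Ccl21a row on chromosome 4 had 13 and 9 against 8 and 9. A second Ccl21a row, on an unplaced scaffold, had 0 and 0 against 3 and 5 counts, and reads of these near-identical copies cannot be assigned with certainty. Dendritic cell markers did not separate the groups as a list: 2 of 4 were lower without overlap, where 23.6% of all tested genes were. Their summed levels were 48.5 and 29.8 CPM against 34.2 and 32.8 CPM. The part of these cells in the values of Ccl17, Ccl22 and Ccr7 was not tested.

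Cxcl13, which organises B cell follicles, was the only member higher in the Cre pair at an unadjusted p under 0.05. It stood at 0.382 and 0 CPM in the floxed pair and 1.78 and 5.41 CPM in the Cre pair (log2 fold change 4.08 ± 1.23 SE, adjusted p = 0.268), from 9 and 0 against 35 and 94 counts. Without Cre 2 the log2 fold change was 3.09 and its unadjusted p was above 0.05, and without floxed 1 the floxed side held 0 counts. The Cre libraries themselves differed by 3.04-fold, and the level was low in all 4. Its receptor Cxcr5 had 8 and 7 counts against 2 and 14. Of 4 B cell markers, 1 was lower and 1 higher in the Cre pair without overlap, near the shares over all tested genes of 23.6% and 24.7%. Their summed levels were 9.90 and 15.2 CPM in the floxed pair and 10.8 and 8.01 CPM in the Cre pair.

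Membrane-bound chemokines and lymphotactin were mostly lower in the Cre pair. Cxcl16, a membrane-anchored ligand of Cxcr6 and the most abundant of this group per length, stood at 62.5 and 81.5 CPM in the floxed pair and 44.0 and 44.5 CPM in the Cre pair (-0.70 ± 0.22 SE, adjusted p = 0.282), with 18.3% of its exon bases shared with Zmynd15. Cx3cr1, the fractalkine receptor of monocytes and macrophages, had 43.2 and 25.3 against 18.1 and 12.2 CPM (-1.18 ± 0.37 SE, adjusted p = 0.282). Xcl1, released by natural killer and CD8 T cells, had 4.63 and 1.61 against 0.204 and 0.922 CPM (-2.48 ± 0.92 SE, adjusted p = 0.33), with Gm20743 overlapping 18.7% of its exons. For these 3 genes the groups did not overlap. Fractalkine itself, Cx3cl1, overlapped (-0.55 ± 0.50 SE) because floxed 1 lay below the Cre pair and floxed 2 above it. Cxcr6 was at -0.37 ± 0.34 SE, and Xcr1, the receptor of Xcl1 on cross-presenting dendritic cells, had 152 and 89 against 55 and 61 counts, a ratio of 1.88 (1.50 to 2.36).

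Mucosal and epithelial ligands included some of the most abundant members. Cxcl14, a CXC ligand of epithelium and stroma, stood at 342 and 272 CPM in the floxed pair and 138 and 112 CPM in the Cre pair (log2 fold change -1.30 ± 0.26 SE, adjusted p = 0.163), and both floxed libraries lay well above both Cre libraries. Ccl28, which draws antibody-secreting cells to mucosa through Ccr10, stood at 39.7 and 418 CPM in the floxed pair and 283 and 269 CPM in the Cre pair. Cxcl17, a mucosal ligand, had the same order, at 17.1 and 163 CPM against 101 and 81.6 CPM. For both, the Cre pair lay between the floxed libraries, and the direction depended on which floxed library was compared: against floxed 1 alone the log2 fold changes were 2.79 and 2.41, and against floxed 2 alone -0.60 and -0.83. Epithelial markers differed less, with summed levels of 1106 and 1680 CPM in the floxed pair and 1332 and 1215 CPM in the Cre pair, and none was at 0. Ccr10 had a log2 fold change of -0.39 ± 0.40 SE and Ccl27a, on chromosome 4, of 0.049 ± 0.35 SE. Below the filter, Ccl25 had 60 and 31 against 98 and 90 counts, a ratio of Cre to floxed of 2.29 (1.77 to 2.97). Its receptor Ccr9 had 41 and 18 against 9 and 3 counts, though other genes overlap 21.5% of its exons. Ccr6, Ccl27b, the second Ccl27a row and 4 more members had fewer than 10 counts over the 4 libraries, 7 in all.

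Cxcl12, the stromal ligand of Cxcr4 that holds stem and immune cells in tissue, was higher in the Cre pair without overlap, at 263 and 203 CPM against 330.1 and 351 CPM (0.55 ± 0.26 SE, adjusted p = 0.423). Cxcr4 went the other way, with a log2 fold change of -0.89 ± 0.39 SE, and Ackr3, the atypical receptor that scavenges Cxcl12, was at -0.13 ± 0.24 SE and overlapped. None of the 3 reached an unadjusted p of 0.05. The other atypical receptors also overlapped or differed little. Ackr1, on venules, was lower without overlap at -0.40 ± 0.40 SE and shares 25.7% of its exon bases with Cadm3. Ackr2, on lymphatic vessels, was at 0.19 ± 0.53 SE, and Ackr4 at -0.077 ± 0.54 SE. Ackr1 is the most abundant of those 3 per length, at 4.16 and 4.82 CPM in the floxed pair and 3.0 and 3.80 CPM in the Cre pair.

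**Figure D3:**
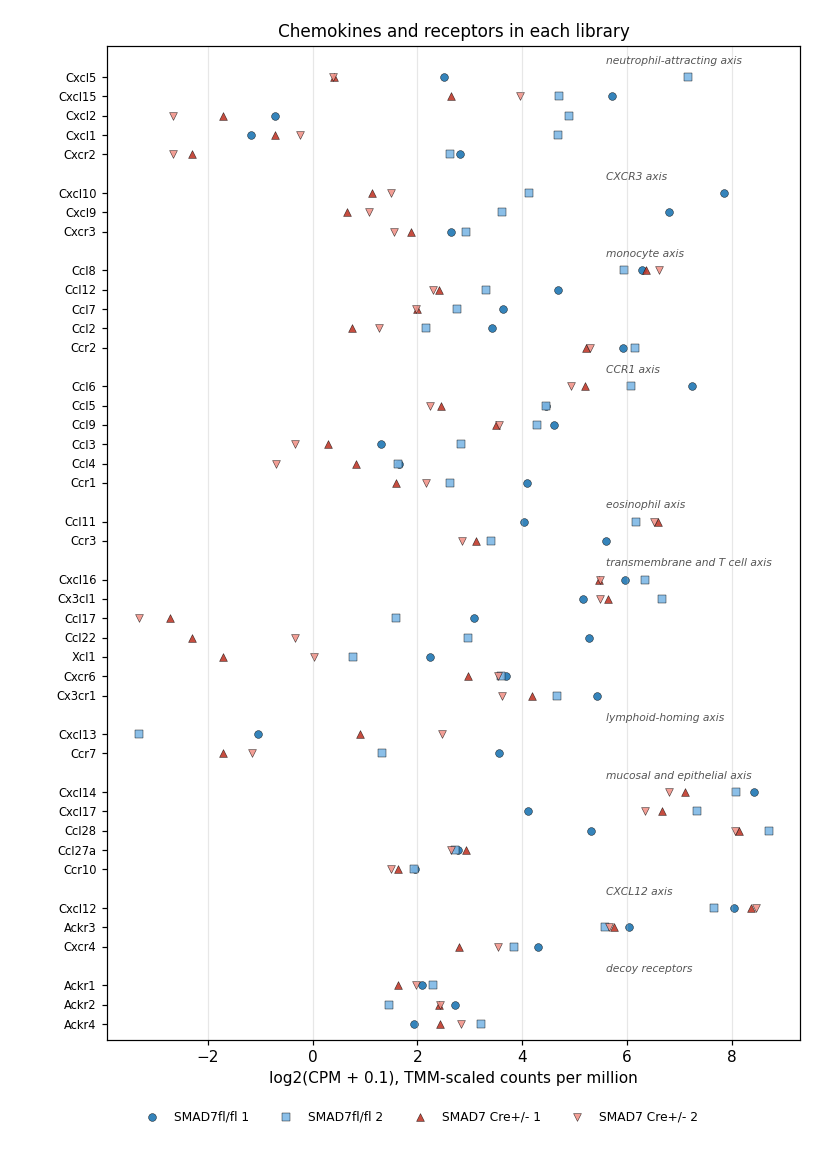
Level of 41 tested members as log2(CPM + 0.1) in the 4 libraries (x axis), by role (y axis); blue marks are floxed and red marks Cre libraries. The floxed marks of Cxcl1, Cxcl2, Cxcl10 and Ccl28 lie far apart.

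Compared per length by the deposited FPKM, which permit levels to be set between genes, the summed ligand level was 878 and 933 FPKM in the floxed pair and 643 and 631 FPKM in the Cre pair, and receptors summed to 108 and 67.8 against 47.7 and 51.6 FPKM. Ligands thus exceeded receptors in every library. In floxed 1, Cxcl14 (21.9%), Ccl8 (17.7%), Cxcl10 (11.9%) and Ccl6 (9.83%) led the ligand sum. Floxed 2 was led by Cxcl17 (22.0%), Cxcl14 (15.3%), Ccl8 (12.4%) and Ccl28 (8.87%). Cre 1 and Cre 2 had the same leading genes as each other: Ccl8 (25.0% and 30.1%), Cxcl17 (20.5% and 16.9%), Ccl11 (13.8% and 13.3%) and Cxcl14 (11.7% and 9.64%). The plot of the make-up shows that Cxcl10, Ccl6 and Ccl12 in floxed 1 and Cxcl5 in floxed 2 account for bars that are thin or absent in the Cre pair.

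**Figure D4:**
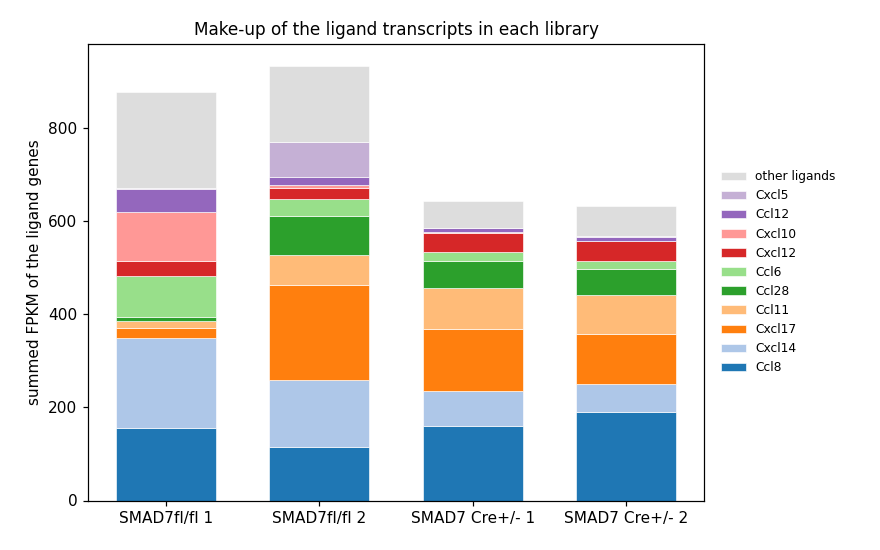
Summed FPKM of the ligand genes (y axis) in each library (x axis), stacked by the 10 ligands of highest mean FPKM, with the others in grey. The floxed bars reach 878 and 933, the Cre bars 643 and 631, and Cxcl10 is visible in floxed 1 and Cxcl5 in floxed 2.

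Against a single floxed library, with the spread taken from the Cre pair alone, edgeR called many members. Without floxed 1, 23 members were lower and 3 higher at an adjusted p under 0.05, where 13.9% and 17.5% of all genes were. Without floxed 2, 22 were lower and 4 higher, where 11.4% and 10.4% of all genes were. These 2 comparisons share both Cre libraries and assume that the lone floxed library varies like the Cre pair, although the coefficient of variation of the floxed pair itself was 0.401. Against floxed 1 and floxed 2 in turn, the log2 fold changes were -6.31 and -6.10 for Cxcr2, -2.12 and -2.12 for Ccl5, -1.46 and -1.12 for Cxcl14, and -0.68 and -0.90 for Ccr2.

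Beyond ligands and receptors, 33 of 35 listed genes of signal transduction, adhesion and regulation in this pathway were tested. At an unadjusted p under 0.05, 8 were lower and 1 higher (6.58% and 7.3% of all tested genes were), and 0 passed after adjustment; their median log2 fold change was -0.43. Rac2, a GTPase of leukocyte movement, stood at 63.2 and 56.7 CPM in the floxed pair and 21.3 and 20.6 CPM in the Cre pair, and Ccrl2, which presents chemerin, at 17.6 and 22.2 against 5.14 and 6.05 CPM. Rgs16, which turns off G protein signals, had 5.91 and 8.71 against 1.53 and 1.04 CPM. The chemerin receptor Cmklr1 was the 1 higher gene, at 24.9 and 17.9 against 64.8 and 50.9 CPM.

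Of 21 listed inducers of chemokines, 17 were tested, 9 were lower and 0 higher at an unadjusted p under 0.05 (6.58% and 7.3% of all tested genes were), and 0 passed after adjustment (median log2 fold change -0.84). Those of smallest p were the cytokines Il1b (11.8 and 24.0 against 0.763 and 0.518 CPM) and Tnf (5.61 and 9.74 against 0.967 and 0.691 CPM), and the interferon regulatory factors Irf7 (189 and 141 against 56.6 and 35.7 CPM) and Irf1 (285 and 90.9 against 48.5 and 40.3 CPM). Il1b and Tnf were higher in floxed 2 than in floxed 1, as Cxcl1, Cxcl2 and Cxcl5 were, and Irf1 was higher in floxed 1, as Cxcl9 and Cxcl10 were. No relation between these genes was tested, since 4 libraries do not permit it.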

How the data were processed

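Each library's deposited gene table holds raw counts in whole numbers and, beside them, FPKM computed by the authors, per the file headers. HISAT2, HTSeq 0.13.5 and GRCm38 appear in the submitters' processing notes; the strand setting is not given in the sources used here. Gene lengths implied by FPKM, count and total count were equal between libraries, within a relative 1e-06, for 23463 of 23463 genes. Coordinates and exon overlaps are from GENCODE mouse release M21 (GRCm38).

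The 13513 of 28545 genes whose mean reached 1 FPKM were fitted with edgeR 4.0.16 (R 4.3.3): quasi-likelihood tests, TMM scaling, group as the only term, 2 residual degrees of freedom, two-sided p-values adjusted by Benjamini-Hochberg over every gene fitted. Standard errors were derived from the F statistic (absolute log2 fold change divided by its square root). A floor of 3 counts equals 0.127 to 0.173 CPM. Ratios of counts carry 95% exact binomial intervals, which cover counting error only. An exact permutation test of 2 against 2 libraries cannot go below p = 0.33. The procedure was run on simulated counts with the same spread in both groups. The floxed and Cre pairs differed in spread, so that run does not cover the data in this respect. Alternatives were the filter, scaling, DESeq2 1.42.0, limma 3.58.1 on log2(FPKM + 1) and on log2(FPKM + 0.1), the replicate number as a block, and each library left out. Tested members are named, except where a result is not reported here; values per library are given for members with an unadjusted p under 0.05 and the one of highest mean FPKM in each role, and for the 4 tested genes of smallest p in each pathway list. Other values were chosen after they were seen. Members and lists were chosen with earlier results of these data known.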

Additional observations from a re-analysis of the deposited data

How the results depend on the processing

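Whether a member was called depended on the test and the filter. The filter on FPKM depends on gene length as well as on counts: Xcr1 and Ccl25 fell under it with 357 and 279 counts over the 4 libraries. Depth limits the members with few counts. Without a filter, 26 members passed at an adjusted p under 0.05 (24 lower, 2 higher), where 933 lower and 995 higher of all 27379 genes did. In that setting 4 members were higher at an unadjusted p and 8 were higher without overlap (21.5% of all genes with a count were). With 10 counts in 2 libraries, 2 were higher at an unadjusted p. Shares of all genes at an unadjusted p were not computed for the alternatives. Shares of all genes without overlap were likewise not computed with 1 library left out, as in the next paragraph. There 1 library is set against 2, and groups separate more easily than with 2 against 2. Counts without overlap there can therefore rise for that reason alone. Those of lower members ran from 30 (without Cre 2) to 35 (without floxed 1). DESeq2 called 15. The median log2 fold change of the members was -1.04 with limma on log2(FPKM + 1).

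Leaving out 1 library at a time, members at an adjusted p under 0.05 numbered 0 (either Cre library) to 26 (either floxed library), members lower at an unadjusted p 10 (without Cre 2) to 27, members higher 0 to 4, members higher without overlap 4 to 9, and the median ran from -1.42 (without floxed 2) to -0.89 (without floxed 1).

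The titles share replicate numbers, but nothing says that a number marks a shared animal or batch, and same-numbered libraries did not deviate together (correlation -0.0757). With the replicate number as a block, 22 members were lower and 1 was higher at an unadjusted p, with a median of -1.27. After adjustment 0 members passed, as did 0 of all 13513 genes.

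Of 648 alternative values for 54 genes, 500 kept direction and side of the threshold, 131 newly passed it and 17 turned direction. Ackr4 turned to 0.037 with limma on log2(FPKM + 0.1) and to 0.043 with the replicate block, Ccl27a to -0.0088 without a filter, and Cxcl17 to -0.029 without a filter and -0.015 with 10 counts in 2 libraries. Leaving out 1 library at a time, log2 fold changes spanned 0 for the following genes: Ackr2 ranged from -0.32 to 0.99, Ackr3 ranged from -0.35 to 0.13, Ackr4 ranged from -0.59 to 0.70, Ccl27a ranged from -0.10 to 0.18, Ccl28 ranged from -0.60 to 2.79, Cx3cl1 ranged from -1.11 to 0.39, Cxcl1 ranged from -5.35 to 0.86, Cxcl17 ranged from -0.83 to 2.41, Nfkbia ranged from -1.46 to 0.73, Nfkbiz ranged from -2.54 to 0.57. The cause was not tested.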
